A study of Mus musculus with 38 samples.

Results

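Cytosolic ribosomal protein genes were followed through the passage of mouse B cells to antibody-secreting cells. The genes were taken by symbol: names of the forms RPL or RPS followed by a number, with an optional final A, L or X, together with the stalk proteins RPLP0, RPLP1 and RPLP2 and with RPSA. S6 kinase genes were left out. Of 75 names that met this rule, 3 were on more than 1 line and were left out, which gave 72 genes among the 11441 genes with a unique name in the same tables. They comprise 42 genes of the large subunit, 3 of them coding for the stalk, and 30 genes of the small subunit. All 72 reached 1 RPKM (reads per kilobase of gene, scaled to the reads of the library) in at least 2 of the 8 libraries of the main tables. Only 70 could be followed elsewhere, because Rpl21 and Rpl6 are on more than 1 line of the other tables.

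The study holds 38 samples, of which the 14 polyadenylated RNA libraries were used and the 24 ChIP-seq and ATAC-seq libraries were not analysed here. All mice were C57BL/6 and each of the 7 groups has 2 libraries. Blimp1-deficient pre-plasmablasts carry the Blimp1(GFP/fl) alleles with Cd23(Cre/+), a Cre that deletes the floxed allele in mature B cells, and were sorted as CD138-GFP+CD22hi after 4 days in LPS, the bacterial lipopolysaccharide that activates B cells. From 4-day LPS cultures of Blimp1(GFP/+) Cd23(Cre/+) cells came 3 control groups: activated B cells sorted as CD138-GFP-, pre-plasmablasts sorted as CD138-GFP+, and CD138+GFP+ plasmablasts. GFP reports activity of the Prdm1 gene, which codes for Blimp1, and every one of these controls therefore has 1 reporter allele of Blimp1. The deficient cells differ from the control pre-plasmablasts in genotype and in the CD22hi gate together, and these cannot be told apart. Another pair of groups was made of Blimp1(GFP/+) pre-plasmablasts (CD138-GFP+) cultured for 4 days in LPS with GSK343 or with DMSO, the solvent control. GSK343 inhibits Ezh2, which methylates histone H3. Plasma cells were Blimp1(GFP/+) cells sorted directly ex vivo as CD28+CD138+GFP+Lin-. Nothing states that libraries of a group came from separate mice or cultures, so a p-value here reflects only how far these libraries spread, and that spread may be technical.

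A ribosome consists of a small subunit, which reads the messenger RNA, and a large subunit, which joins amino acids. Most ribosomal proteins are needed in equal copy number in each particle, and their messenger RNAs share a run of pyrimidines at the 5′ end (the TOP motif) through which mTORC1 signalling controls their translation. Resting B cells build ribosomes when they are activated, and plasma cells devote much of their translation to immunoglobulin.

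The targeted gene was examined first. Prdm1 had 199 and 171 RPKM in Blimp1-deficient pre-plasmablasts, against 429 and 327 RPKM in control pre-plasmablasts. Activated B cells had 7.45 and 10.7 RPKM. Which exons these values cover, and how far reads of the reporter allele enter them, is not given in the sources used here. They are therefore only a partial check of the genotype. Depth is unknown for the 8 GC-normalized libraries of these 4 groups, in which between 9744 and 10077 genes reached 1 RPKM. The DMSO and GSK343 libraries had 9188 to 9519 such genes and the plasma cell libraries 9869 to 9885. The sequencing of the second plasma cell library was 0.962 times as deep as that of the first, as read from the step of their lowest values.

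Levels of the 72 genes were far from equal. Within a library of the main tables the lowest gene had between 0.793 and 3.36 RPKM, the median gene between 65.4 and 97.8 RPKM and the highest between 3837 and 7838 RPKM. By their mean over the 8 libraries, 12 genes were under 10 RPKM, 25 were between 10 and 100, 22 were between 100 and 1000 and 13 were at 1000 or more. Rplp1, a stalk protein that helps to recruit elongation factors, led with a mean of 5807 RPKM, followed by Rpl8 at 4204, Rps26 at 3607 and Rpl4 at 3399 RPKM. At the other end Rpl24 averaged 2.49 RPKM, Rps29 3.01, Rpl21 3.47, Rpl23a 3.88 and Rpl5 4.47 RPKM. Rpl5 is one of the proteins that carry 5S RNA into the large subunit.

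Levels were lower where pseudogenes carry the name of the gene. Of the 71 genes matched by symbol in the RefSeq gene table for GRCm38, 15 have no pseudogene named after them, and their median level was 645 RPKM. At least 1 is named after each of the other 56, whose median was 48.5 RPKM. The Spearman correlation between the number of named pseudogenes and the level was -0.46 across these 71 genes, which are not independent replicates. Copies that carry another name are not in this number. How reads that match several places were treated, and whether strand entered the counting, is not given in the sources used here. Levels of genes with near-identical copies are therefore uncertain, and Rpl24, with no named pseudogene, shows that a low level also occurred without one.

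**Figure D1:**
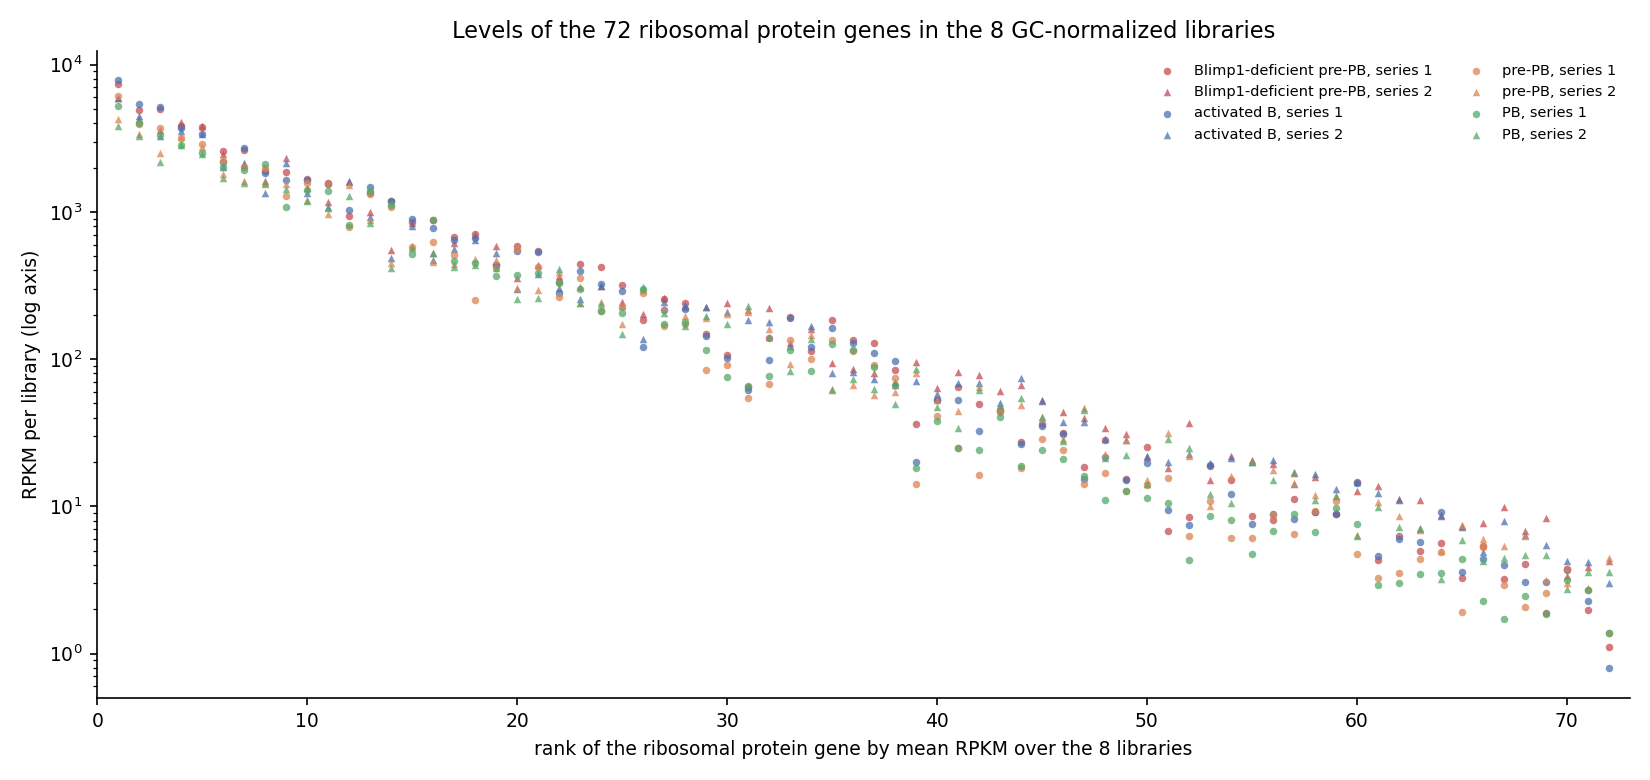
Level of each ribosomal protein gene in the 8 GC-normalized libraries, with the rank of the gene by mean RPKM on the x axis and RPKM on a log y axis; each point is 1 library. The levels run from below 10 RPKM for 12 genes to above 1000 RPKM for 13, and the lowest gene of a library had 0.793 to 3.36 RPKM.

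Libraries of 1 group differed by the number series in their titles, and for these genes the difference was large. Each group has 1 library numbered 11746 to 11749 (series 1) and 1 numbered 11951 to 11954 (series 2). In the limma fit with group as a term, 38 ribosomal protein genes were higher in series 2 and 21 were lower, against 21.5% and 20.2% of all 10473 genes tested. Rps7 was 1.94 higher in series 2 on the log2 scale, with 96.1, 70.7, 80.8 and 85.3 RPKM in the series 2 libraries of Blimp1-deficient cells, activated B cells, pre-plasmablasts and plasmablasts, against 36.2, 20.1, 14.2 and 18.2 RPKM in series 1. All 4 series 2 libraries lay above all 4 of series 1.

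The direction of the series difference followed the level. Of 12 genes averaging under 10 RPKM, 10 were higher in series 2 and none was lower, with a median log2 difference of 0.87. Of 25 genes between 10 and 100 RPKM, 18 were higher and 3 lower (median 0.57). Of 22 genes between 100 and 1000 RPKM, 8 were higher and 9 lower (median 0.01). Of 13 genes at 1000 RPKM or more, 2 were higher and 9 lower (median -0.27). The Spearman correlation between level and series difference was -0.58 across the 72 genes and -0.07 across all genes tested. Both share the same 8 libraries. What differs between the series is not given in the sources used here.

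**Figure D2:**
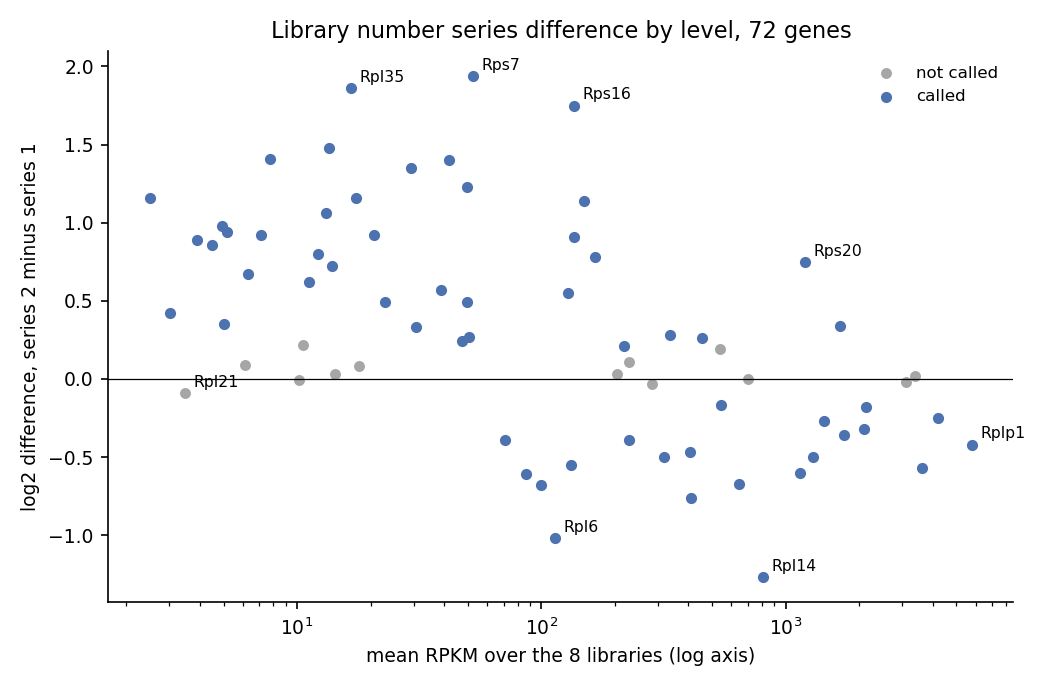
Log2 difference between library number series, series 2 minus series 1 with group in the fit, against mean RPKM over the 8 libraries (log axis), 1 point per gene. Genes under 10 RPKM lie almost all above 0 (median 0.87), and genes at 1000 RPKM or more lie mostly below it (median -0.27).

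Because of this, groups were compared within each series as well as over both, and the limma fit was run with and without the series as a block. The series pairs the libraries in these data: the differences between series correlated between groups at 0.666 to 0.781 over 10473 genes.

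Ribosomal protein genes took a smaller share of the summed RPKM in GFP+ control cells than in activated B cells or in Blimp1-deficient cells. Over 11165 genes present in every kind of table, the 70 genes that could be followed made up 11.1% and 9.97% of the summed RPKM in Blimp1-deficient pre-plasmablasts, series 1 first. They made up 11.2% and 9.62% in activated B cells, 8.98% and 7.83% in pre-plasmablasts and 8.57% and 7.41% in plasmablasts. The share in pre-plasmablasts was below that in activated B cells and in Blimp1-deficient cells in both series. Between 20 and 22 of the 70 genes were among the 100 most abundant genes in Blimp1-deficient libraries, and 19 to 21 in activated B cell libraries. There were 15 to 18 in pre-plasmablasts and 15 to 16 in plasmablasts. A share of RPKM depends on every other gene as well, and in bulk samples fewer cells of a type and less RNA per cell cannot be told apart.

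In the other kinds of table the shares stood elsewhere. They were 15.6% and 16.1% with GSK343, against 16.3% and 16.9% with DMSO. Ex vivo plasma cells had 4.63% and 4.52%. These tables are not labelled as GC-normalized, so the level of one kind cannot be set against that of another as a change.

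**Figure D3:**
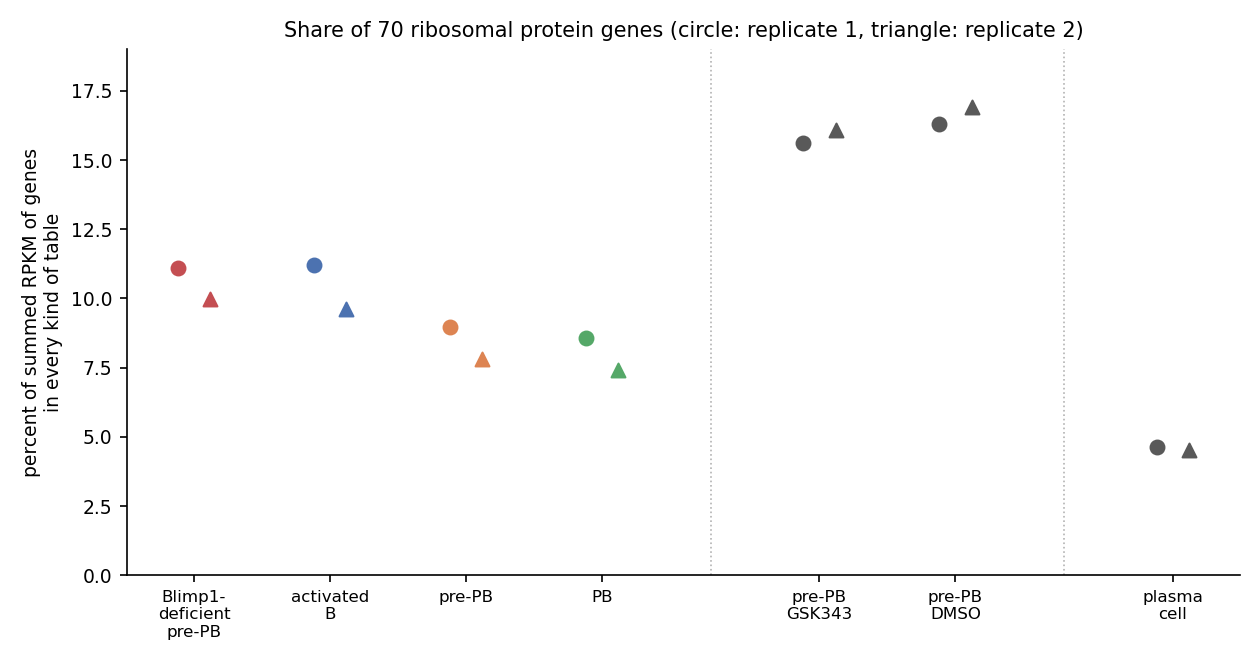
Percent of the summed RPKM of 11165 shared genes taken by 70 ribosomal protein genes, 1 point per library. Circles mark replicate 1 and triangles replicate 2. Dotted lines separate the 3 kinds of table, of which only the first is labelled as GC-normalized. Pre-plasmablasts and plasmablasts lie between 7.41% and 8.98%, and activated B cells and Blimp1-deficient cells between 9.62% and 11.2%.

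Marker genes moved with the same groups. The summed RPKM of 5 B cell markers was 2670 and 3031 in Blimp1-deficient cells, 2190 and 2532 in activated B cells, 1431 and 1715 in pre-plasmablasts and 838 and 1030 in plasmablasts. For 7 plasma cell markers the sums were 432 and 558, 90.6 and 270, 4356 and 6248, and 8810 and 13860 RPKM in the same order, and for the 3 myeloid markers present in these tables of 7 listed they were 35.9 and 43.1, 31.3 and 24.8, 12.3 and 17.2, and 4.48 and 6.69 RPKM. The 3 natural killer or dendritic cell markers present of 6 gave 30.3 to 36.9, 50.6 to 58.7, 21.0 to 25.0 and 8.97 to 9.31 RPKM. For the 2 erythroid or megakaryocyte markers of 6 these ranges were 13.3 to 14.5, 12.9 to 18.4, 2.5 to 3.27 and 1.49 to 1.6 RPKM, and for Lck, the 1 T cell marker present of 7, they were 4.45 to 4.82, 6.91 to 7.63, 1.74 to 2.75 and 2.07 to 2.79 RPKM. In the main tables no marker present was at 0 except Tnfrsf17, a plasma cell marker, in the series 2 library of Blimp1-deficient cells. Their part in the results on ribosomal protein genes was not tested.

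Pre-plasmablasts, in which the Blimp1 reporter is on, were compared with activated B cells, in which it is off. Most ribosomal protein genes were slightly lower and 1, Rps27l, was clearly higher. On the scale of log2(RPKM + 1) the median difference was -0.25, with 62 genes below 0 and 10 above, against a median of -0.12 over all genes. The large subunit had a median of -0.24 and the small subunit of -0.26. In limma 8 genes fell and 1 rose at an adjusted p under 0.05, where 28.0% of all genes tested fell and 20.2% rose. The share of ribosomal protein genes called lower, 11.1%, was thus under the background. With the series as a block, 36 fell and 3 rose (background 41.7% and 27.9%). The signs were shared by both series for 53 lower genes (background 53.5%) and 6 higher genes (background 36.9%), and the median was -0.31 in series 1 and -0.20 in series 2.

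Rps27l is a close relative of the small subunit protein Rps27 and is known in human cells as a gene that p53 induces. It had 280 and 294 RPKM in pre-plasmablasts, against 121 and 137 RPKM in activated B cells. Both pre-plasmablast libraries lay above both activated B cell libraries, in each series. The log2 difference was 1.15 (SE 0.10, limma adjusted p = 0.000176), a 2.23-fold higher level on the RPKM + 1 scale. Its relative Rps27 had 5.33 and 5.97 RPKM in pre-plasmablasts, against 4.41 and 4.93 RPKM in activated B cells, and did not pass the test.

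Among the genes that fell, Rpl15, of the large subunit, had 4.75 and 6.36 RPKM in pre-plasmablasts, against 14.4 and 14.6 RPKM in activated B cells. The groups did not overlap, and the log2 difference was -1.25 (SE 0.15, limma adjusted p = 0.000831). Rpl36 had 10.9 and 10.1 RPKM in pre-plasmablasts, against 19.1 and 19.6 RPKM in activated B cells, a difference of -0.82 (SE 0.17, limma adjusted p = 0.00785). Rpl9 and Rpl36 are both large subunit proteins with low levels here. Rpl15, Rpl36 and Rpl9 have 5, 10 and 9 named pseudogenes, so the limit on levels given above holds for them. How far reads of such copies enter these differences was not tested. Rpl9 had 4.9 and 4.98 RPKM in pre-plasmablasts, against 9.22 and 8.58 RPKM in activated B cells (-0.74, SE 0.18, limma adjusted p = 0.0151), and its adjusted p was 0.0513 to 0.0748 when any 1 library of these 2 groups was left out.

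Rpl39 lines the tunnel through which the new protein leaves the ribosome. It had 253 and 481 RPKM in pre-plasmablasts, against 663 and 639 RPKM in activated B cells (-0.90, SE 0.27, limma adjusted p = 0.0322). The pre-plasmablast libraries were both lower but far apart, and the adjusted p was 0.0554 with median-of-ratios scaling and 0.112 without the first activated B cell library. Rpl7 had 213 and 246 RPKM in pre-plasmablasts, against 326 and 313 RPKM in activated B cells (-0.48, limma adjusted p = 0.0451, and 0.113 with median-of-ratios scaling). Rpl27a, a large subunit protein, had 24.9 and 44.2 RPKM in pre-plasmablasts, against 52.9 and 68.6 RPKM in activated B cells (-0.84, limma adjusted p = 0.0554), and was called lower with the block. Rpl10a and Rps19 were among the other genes that fell. The count of 8 depended on single libraries: it was 3 without either activated B cell library, 4 without the first pre-plasmablast library and 5 without either plasmablast library. With median-of-ratios scaling 4 fell and 1 rose.

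Rpl10 is a large subunit protein that joins late in maturation, as known from yeast. It had 15.6 and 31.3 RPKM in pre-plasmablasts, against 9.46 and 20.0 RPKM in activated B cells. The groups overlapped over both series, but within each series the pre-plasmablast library was higher, by 0.67 in series 1 and 0.62 in series 2 on the log2 scale. The difference of 0.64 had an SE of 0.65 and a limma adjusted p of 0.457 without the block, and an SE of 0.11 and an adjusted p of 0.000955 with it, the lowest of any setting tried, where the highest was 0.902 without the first activated B cell library. Rpl24 was the other gene that rose only in the blocked fit, at 1.37 and 4.47 RPKM in pre-plasmablasts, against 0.793 and 3.0 RPKM in activated B cells.

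The stalk of the large subunit consists of Rplp0, which forms its base, and Rplp1 and Rplp2, which form dimers on it. Rplp1 had 6095 and 4280 RPKM in pre-plasmablasts, against 7838 and 5934 RPKM in activated B cells, lower within each series (-0.42, limma adjusted p = 0.239) and called with the block. Rplp0 had 2214 and 1796 RPKM in pre-plasmablasts, against 2194 and 2005 RPKM in activated B cells, and Rplp2 had 1550 and 963 RPKM in pre-plasmablasts, against 1540 and 1086 RPKM in activated B cells. Neither passed the test with or without the block, and the small negative differences of -0.07 for Rplp0 and -0.08 for Rplp2 became 0.05 and 0.04 with median-of-ratios scaling. Rpsa, of the small subunit, had 74.7 and 59.4 RPKM in pre-plasmablasts, against 96.8 and 66.6 RPKM in activated B cells (-0.27, limma adjusted p = 0.39), and was called lower with the block.

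The scaling of the tables moved these shifts. With median-of-ratios scaling the median of all genes moved from -0.12 to -0.01 in this comparison, and that of the ribosomal protein genes from -0.25 to -0.12. Over all genes the split of calls moved from 2117 higher and 2931 lower to 2461 higher and 2259 lower. For Blimp1-deficient against control pre-plasmablasts the median of all genes moved from 0.12 to 0.01, with 2553 higher and 1681 lower genes becoming 1877 and 2036. For plasmablasts against activated B cells it moved from -0.18 to -0.01, with 2228 higher and 3547 lower genes becoming 2782 and 2617. For plasmablasts against pre-plasmablasts the 75 higher and 170 lower genes became 103 and 139.

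Blimp1-deficient pre-plasmablasts were compared with control pre-plasmablasts. The comparison shares the pre-plasmablast libraries with the preceding one, so the 2 are not independent. Ribosomal protein genes were mostly higher in the deficient cells: 68 differences were above 0 and 4 (Rpl10, Rps27l, Rpl27 and Rpl24) below, with a median of 0.35, against 0.12 over all genes. In limma 10 genes rose and 1 fell, where 24.4% of all genes tested rose and 16.1% fell. With the block 48 rose and 2 fell (background 40.4% and 24.9%). In both series 59 genes were higher (background 52.2%) and 4 lower (background 34.1%), and the medians were 0.36 in series 1 and 0.34 in series 2. With median-of-ratios scaling the median was 0.23, against 0.01 over all genes, and 7 genes rose.

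Rpl15 had 14.7 and 12.7 RPKM in Blimp1-deficient cells, against 4.75 and 6.36 RPKM in control pre-plasmablasts. The log2 difference was 1.17 (SE 0.15, limma adjusted p = 0.00153). Rpl27a had 65.1 and 82.0 RPKM in deficient cells, against 24.9 and 44.2 RPKM in control pre-plasmablasts (1.11, SE 0.30, limma adjusted p = 0.0248). Rpl39 had 712 and 692 RPKM in deficient cells, against 253 and 481 RPKM in control pre-plasmablasts (1.01, SE 0.27, limma adjusted p = 0.0253). For each of these 3 genes both deficient libraries lay above both control libraries. Rpl15, Rpl27a and Rpl39 have 5, 4 and 1 named pseudogenes, so the limit on levels given above holds for them too.

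Rpl7 had 425 and 314 RPKM in deficient cells, against 213 and 246 RPKM in control pre-plasmablasts (0.67, limma adjusted p = 0.0159). Rpl36 had 18.7 and 15.2 RPKM in deficient cells, against 10.9 and 10.1 RPKM in control pre-plasmablasts (0.64, limma adjusted p = 0.0258). Rpl10a, Rpl18 and Rps19 were among the rest of the 10. The count was 3 without the first deficient library, 5 without the second, 4 without the first control library and 5 when only these 2 groups were fitted. Rpl27a lost its call without the first control library or either deficient library, Rpl39 without either deficient library or in the fit of the 2 groups, and Rpl7 without the first control or first deficient library or in that fit.

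Rps27l went the other way, with 184 and 202 RPKM in Blimp1-deficient cells, against 280 and 294 RPKM in control pre-plasmablasts. The groups did not overlap, and the log2 difference was -0.57 (SE 0.10, limma adjusted p = 0.00467, at most 0.0337 under the alternatives tried). Rpl10 had 6.75 and 18.1 RPKM in deficient cells, against 15.6 and 31.3 RPKM in control pre-plasmablasts. Within each series it was lower in the deficient cells, by -1.10 in series 1 and -0.76 in series 2, and the limma adjusted p was 0.305 without the block and 0.000153 with it, with a highest value of 0.801 without the first deficient library.

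The starts of ribosomal protein genes were examined in RefSeq promoter windows, which run from 250 bases before to 50 bases after an annotated start on GRCm38. The deposited values were made on mm9, so only gene names link windows and values. The windows of 54 of the genes (65 windows) were searched on both strands. The letters sought were CCGGAAG, the core of sites of GABP-type ETS factors, AAGATGGC, the core of YY1 sites, and CTTTCC, a pyrimidine run. The run was counted anywhere in a window, and a TOP motif stands at the 5′ end of the messenger RNA. Shares of CTTTCC are therefore not shares of TOP motifs. CCGGAAG stood in 36.9% of these windows, against 8.86% of all 32851 windows. AAGATGGC stood in 9.23%, against 2.75%, and CTTTCC in 49.2%, against 26.6%. On the strand of the gene alone the shares were 23.1%, against 4.77%, for CCGGAAG, 1.54%, against 1.68%, for AAGATGGC and 38.5%, against 14.1%, for CTTTCC. Each sequence printed here is 30 bases around a match, given on the strand of its gene, with the match in capitals. They show the same ETS core in Rps27l, which rose in pre-plasmablasts, and in Rpl15, Rpl39 and Rpl27a. In Rpl39 and Rpl27a it is on the other strand (CTTCCGG). Rpl15, Rpl39 and Rpl27a were lower in pre-plasmablasts (Rpl27a only in the blocked fit) and higher in Blimp1-deficient cells. Stretches were also sought for other named genes. Rplp0, Rpl24 and Rps27 gave no ETS core, and Rpl10, Rpl36, Rpl9 and Rplp1 gave no match or had no window. In Rps27 the stretch shown holds the pyrimidine run, which starts at base 2 counted from the annotated start. The run also stands on the gene strand of Rpl15, farther upstream, from base -209. In Rps27l it stands from base -203 of another annotated start, which places it downstream of the stretch printed here.
Rps27l, chr9:66946084-66946113, plus strand: ccgcctctatcCCGGAAGttgctgaggggc
Rpl15, chr14:18271125-18271154, minus strand: tgggagagcatCCGGAAGcggcgggctgtc
Rpl39, chrX:37085181-37085210, minus strand: ctaatcgcgttCTTCCGGtcccggcctttc
Rpl27a, chr7:109519015-109519044, plus strand: agctaccggggCTTCCGGgggcgggcgcca
Rps27, chr3:90213630-90213659, minus strand: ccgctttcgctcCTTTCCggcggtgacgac
A match describes letters in a window and does not show that a factor binds there.

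Of the stalk proteins, Rplp0 had 2590 and 2477 RPKM in deficient cells, against 2214 and 1796 RPKM in control pre-plasmablasts (0.34, limma adjusted p = 0.116). Rplp1 had 7348 and 5886 RPKM in deficient cells, against 6095 and 4280 RPKM in control pre-plasmablasts (0.36, limma adjusted p = 0.32). Both were called higher with the block, while Rplp2, at 1571 and 1163 RPKM in deficient cells, against 1550 and 963 RPKM in control pre-plasmablasts, was not. Rps6, the small subunit protein that S6 kinases phosphorylate, had 15.0 and 21.8 RPKM in deficient cells, against 6.14 and 16.1 RPKM in control pre-plasmablasts (0.79, limma adjusted p = 0.208), and was called with the block. Rps15a stood apart between the series: 49.6 and 78.2 RPKM in deficient cells, against 16.3 and 64.6 RPKM in control pre-plasmablasts.

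**Figure D4:**
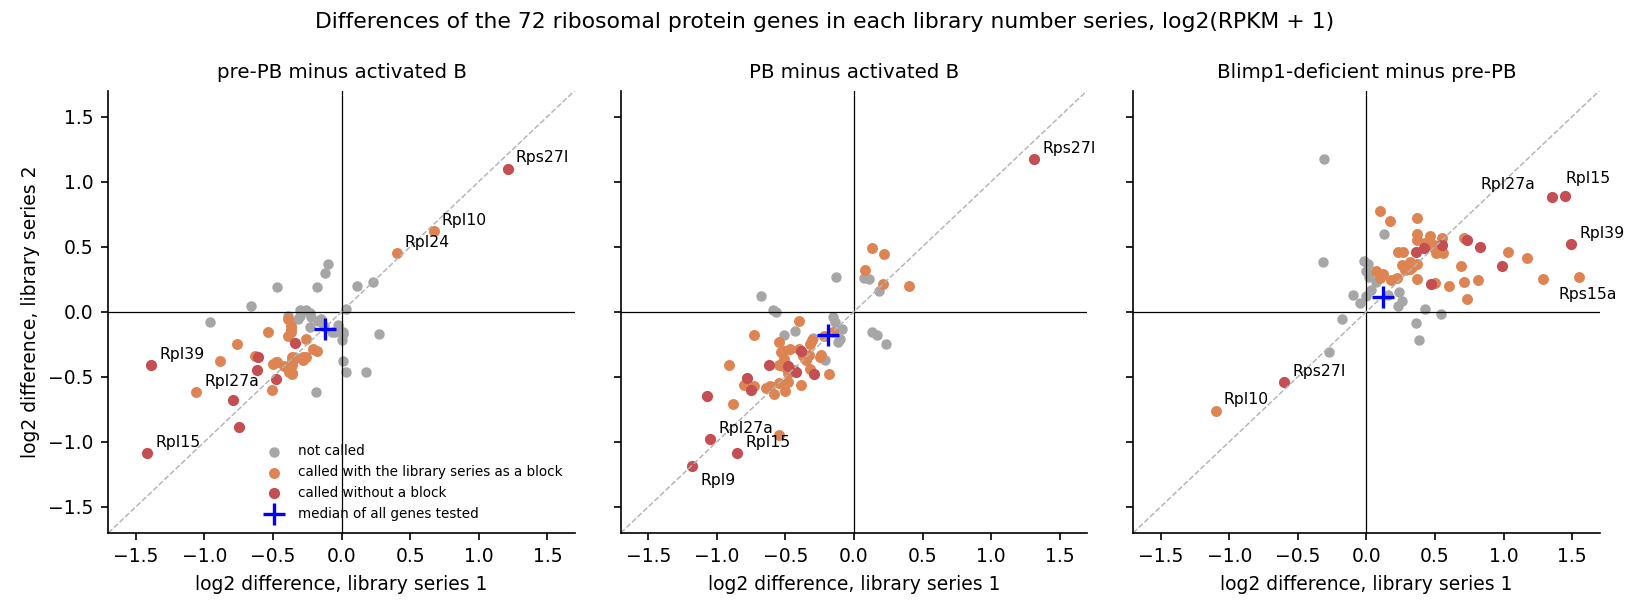
Log2 difference of each ribosomal protein gene in library number series 1 (x axis) and series 2 (y axis) on the log2(RPKM + 1) scale, for pre-plasmablasts (pre-PB) minus activated B cells, plasmablasts (PB) minus activated B cells and Blimp1-deficient minus control pre-plasmablasts; colours mark calls with and without the series block and the cross is the median of all genes. In the first panel 53 genes are below 0 in both series, in the last 59 are above 0 in both, and Rps27l and Rpl10 lie opposite to most genes.

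Blimp1-deficient pre-plasmablasts were then set against the GFP- activated B cells. The median difference was 0.10, against 0.00 over all genes. In limma Rps27l rose and no gene fell, where 10.4% of all genes tested rose and 7.6% fell. At an unadjusted p under 0.05 there was 1 gene. With the block 6 genes rose and none fell (background 22.1% and 20.6%), and in both series 42 were higher (background 41.2%) and 8 lower (background 39.8%). Rps27l had 184 and 202 RPKM in the deficient cells, against 121 and 137 RPKM in activated B cells (0.58, SE 0.10, limma adjusted p = 0.0101). Its level in the deficient cells thus lay between those of activated B cells and control pre-plasmablasts, without overlap with either. The call was lost without the first activated B cell library (adjusted p = 0.075) and without the second deficient library (adjusted p = 0.0681), which left no gene called. Rplp0 had 2590 and 2477 RPKM in deficient cells, against 2194 and 2005 RPKM in activated B cells, and was called only with the block, as were Rpl6, Rps3a, Rpl37a and Rps7.

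Plasmablasts, which carry CD138 on their surface, were compared with pre-plasmablasts. No ribosomal protein gene was called by limma in either direction, where 0.716% of all genes tested rose and 1.62% fell. At an unadjusted p under 0.05 there were 2 genes. The median difference was -0.11, against -0.04 over all genes. With the block 1 gene rose and 5 fell (background 7.0% and 13.3%), and in both series 37 were lower (background 45.0%) and 10 higher (background 29.5%). Rpl41, one of the shortest proteins of the ribosome, was the gene that rose, with 887 and 529 RPKM in plasmablasts, against 627 and 454 RPKM in pre-plasmablasts. Rpl30 had 372 and 254 RPKM in plasmablasts, against 557 and 302 RPKM in pre-plasmablasts. Rps27 had 2.27 and 4.25 RPKM in plasmablasts, against 5.33 and 5.97 RPKM in pre-plasmablasts, and both plasmablast libraries lay below both pre-plasmablast libraries (-0.68, limma adjusted p = 0.239 without the block and 0.0147 with it, and at most 0.685 under the alternatives tried). Rpl3, Rpl22 and Rps2 also fell with the block, and Rps2 is named after its value was seen. Rps27l had 299 and 309 RPKM in plasmablasts, against 280 and 294 RPKM in pre-plasmablasts.

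Over the whole step to plasmablasts from activated B cells, a comparison that shares its libraries with the others, 11 genes fell and 1 rose in limma, where 33.9% of all genes tested fell and 21.3% rose. The median was -0.35, against -0.18 over all genes. With the block 47 fell and 6 rose (background 47.4% and 28.0%), and in both series 57 were lower (background 57.5%) and 9 higher (background 35.3%). Rps27l was the gene that rose, with 299 and 309 RPKM in plasmablasts, against 121 and 137 RPKM in activated B cells (1.24, SE 0.10, limma adjusted p = 9.74e-05). Rpl9 had 3.52 and 3.2 RPKM in plasmablasts, against 9.22 and 8.58 RPKM in activated B cells (-1.18, limma adjusted p = 0.00167). Rpl27a had 25.0 and 34.2 RPKM in plasmablasts, against 52.9 and 68.6 RPKM in activated B cells (-1.02, limma adjusted p = 0.0255, and 0.0525 with median-of-ratios scaling). Rpl15 had 7.53 and 6.32 RPKM in plasmablasts, against 14.4 and 14.6 RPKM in activated B cells (-0.97, limma adjusted p = 0.002). The limit from named pseudogenes given above holds for Rpl9, Rpl27a and Rpl15 here as well.

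Rpl36, Rpl10a, Rps19, Rpl18, Rpl7 and Rpl4 were among the others that fell. Without the first or second activated B cell library 7 and 6 genes fell, without the first plasmablast library 7, and with median-of-ratios scaling 5. The 5 genes that rose with the block beside Rps27l were Rps24, Rps14, Rpl10, Rpl24 and Rps16. Rps14 had 2121 and 1562 RPKM in plasmablasts, against 1834 and 1349 RPKM in activated B cells, higher within each series. Rps24 had 329 and 412 RPKM in plasmablasts, against 281 and 303 RPKM in activated B cells, and both plasmablast libraries were higher than both activated B cell libraries.

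**Figure D5:**
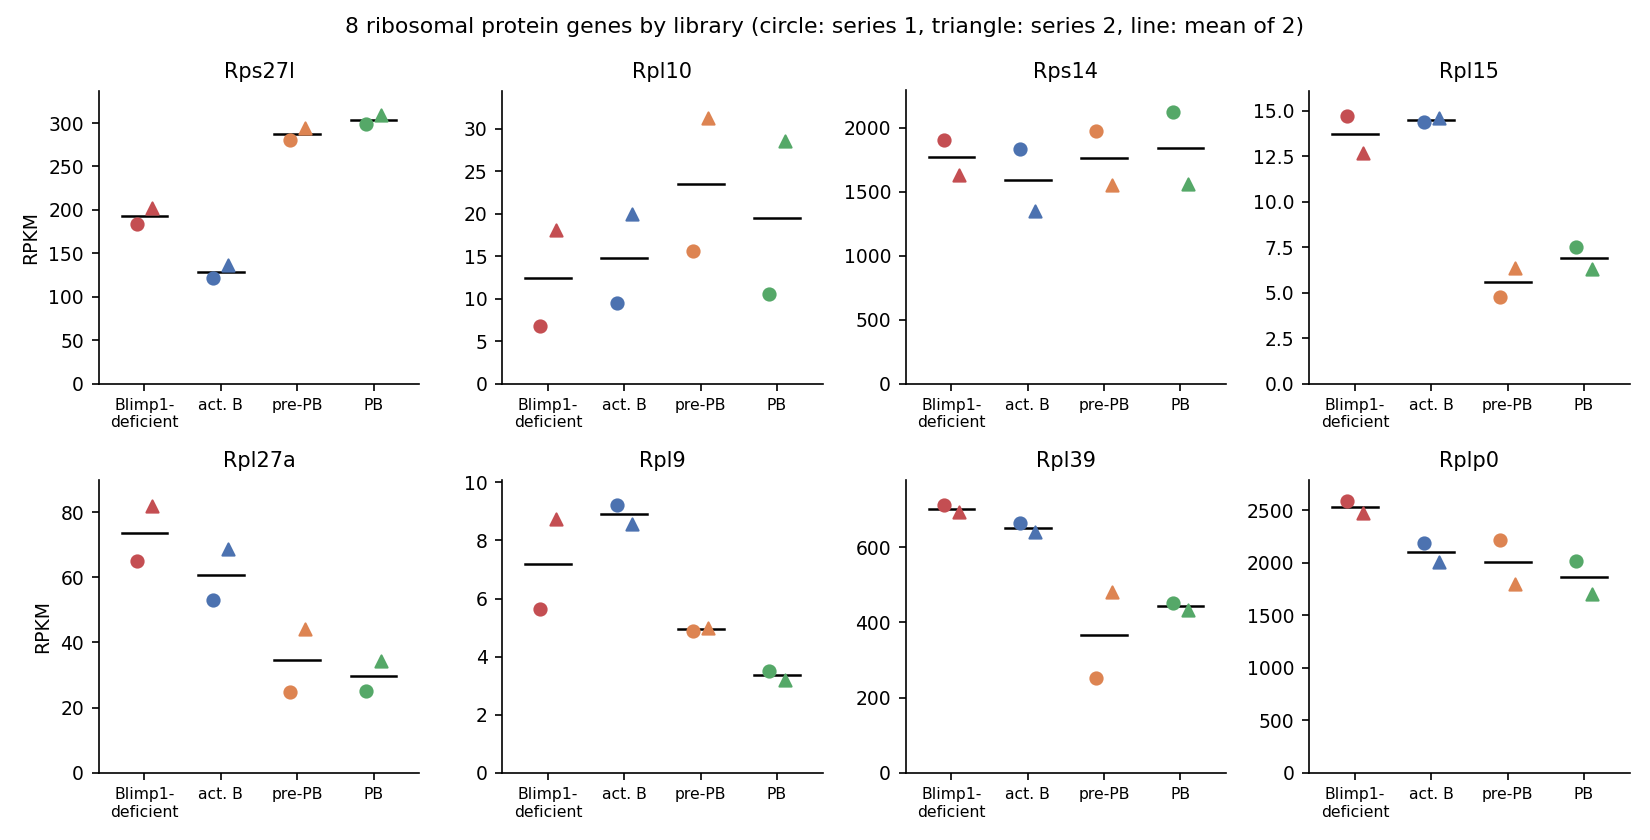
RPKM of selected ribosomal protein genes in each library of Blimp1-deficient cells, activated B cells, pre-plasmablasts and plasmablasts, with circles for series 1, triangles for series 2 and a bar for the mean of both; each RPKM axis starts at 0. Rps27l is lowest in activated B cells (121 and 137 RPKM) and highest in plasmablasts (299 and 309 RPKM) with the deficient cells between, and Rpl10 keeps its order of groups within each series although the series differ.

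Pre-plasmablasts cultured with GSK343 were compared with those in DMSO, and the differences were small. Those of the 70 genes ran from -0.41 to 0.36 on the log2 scale with a median of -0.05, against 0.02 over all 9479 genes tested. In limma 1 gene fell and none rose, where 5.86% of all genes tested fell and 12.7% rose, and 5 genes had an unadjusted p under 0.05. Rpl17, a large subunit protein, was the gene that fell, with 14.5 and 14.1 RPKM with GSK343, against 16.7 and 22.2 RPKM with DMSO (-0.41, SE 0.13, limma adjusted p = 0.0498). The DMSO libraries were further apart than the GSK343 libraries but did not overlap with them, and the adjusted p was 0.0508 with a pseudocount of 0.1 and 0.318 without the second DMSO library. The call turned on single libraries, and the difference of Rpl17 ran from -0.6 to -0.21 when 1 library was left out. Rps27l had 561 and 696 RPKM with GSK343, against 591 and 665 RPKM with DMSO, and the values overlapped. Rplp1 had 15800 and 18116 RPKM with GSK343, against 16334 and 17056 RPKM with DMSO, again with overlap. Myeloid marker RNA was 18.8 and 20.1 RPKM with GSK343, against 5.53 and 6.78 RPKM with DMSO, summed over 7 genes, and that of 7 T cell markers 10.2 and 8.79 RPKM with GSK343, against 2.46 and 2.43 RPKM with DMSO. Their part in these values was not tested.

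Ex vivo plasma cells have no other group in the same kind of table, and their values stand alone. The median gene had 24.6 and 25.8 RPKM, the lowest 0.676 and 0.604 RPKM. Rplp1 was the highest, at 3070 and 2879 RPKM, with Rpl8 at 2118 and 2052, Rps14 at 1144 and 1127 and Rpl41 at 682 and 665 RPKM. Rps27l had 87.9 and 94.3 RPKM. The J chain gene Igj alone had 22670 and 18481 RPKM in these libraries, and 7 plasma cell markers together had 36399 and 35987 RPKM. The summed RPKM of 7 myeloid markers was 58.6 and 54.1.

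Other genes of translation gave a background for these changes. Of 28 listed genes whose messenger RNAs also carry the TOP motif, mostly elongation and initiation factors, 25 were tested. In pre-plasmablasts against activated B cells 4 fell and 1 rose, with a median of -0.24 (3 fell and 3 rose with median-of-ratios scaling). With the block 16 fell and 5 rose. Over all genes 28.0% fell and 20.2% rose without the block, and 41.7% and 27.9% with it. With the scaling alone these shares were 21.6% and 23.5%. In Blimp1-deficient against control pre-plasmablasts 8 rose and 2 fell, with a median of 0.30 (2 rose and 2 fell with that scaling). Counts over all genes with that scaling are given above. With the block 18 rose and 5 fell. Over all genes 24.4% rose and 16.1% fell without the block, and 40.4% and 24.9% with it. Nap1l1, a histone chaperone, had 37.3 and 30.0 RPKM in pre-plasmablasts, against 98.7 and 68.3 RPKM in activated B cells (-1.27, limma adjusted p = 0.00477). It had 96.6 and 69.2 RPKM in Blimp1-deficient cells, 1.26 above control pre-plasmablasts (limma adjusted p = 0.00628). Npm1, the nucleolar protein nucleophosmin, had 101 and 245 RPKM in pre-plasmablasts, against 234 and 445 RPKM in activated B cells (-1.03, limma adjusted p = 0.175), and was called only with the block.

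Chaperones and maturation factors of ribosomal proteins, 21 tested of 23, gave 4 that fell and 1 that rose in pre-plasmablasts against activated B cells (median -0.27). These are 19.0% and 4.76%, against 28.0% and 20.2% of all genes tested. With median-of-ratios scaling none fell and 1 rose, with the block 14 fell and 1 rose, and with both 7 fell and 3 rose. Over all genes 21.6% fell and 23.5% rose with the scaling, 41.7% and 27.9% with the block, and 34.1% and 33.6% with both. In Blimp1-deficient cells against control pre-plasmablasts 7 rose and none fell (median 0.27). With that scaling 1 rose and 1 fell, with the block 14 rose and 1 fell, and with both 10 rose and 2 fell. The counts with both have no share over all genes beside them and are not read as a result. Counts over all genes with the scaling alone are given above. Over all genes 24.4% rose and 16.1% fell without block or scaling, and 40.4% and 24.9% with the block. Grwd1, a chaperone of Rpl3, had 17.0 and 15.8 RPKM in pre-plasmablasts, against 27 and 22.2 RPKM in activated B cells (-0.55, limma adjusted p = 0.0218). Nob1, the nuclease that ends the maturation of small subunit RNA, had 63.9 and 53.2 RPKM in Blimp1-deficient cells, against 40.6 and 32.5 RPKM in control pre-plasmablasts (0.67, limma adjusted p = 0.0268).

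Regulators of the TOR pathway were 15 tested of 16. In pre-plasmablasts against activated B cells 3 rose and none fell, with a median of -0.01, and 4 rose and 3 fell with the block. Over all genes 20.2% rose and 28.0% fell without the block, and 27.9% and 41.7% with it. In Blimp1-deficient against control pre-plasmablasts 1 rose and 3 fell, with a median of -0.03, and 4 rose and 3 fell with the block. Over all genes 24.4% rose and 16.1% fell without the block, and 40.4% and 24.9% with it. Eif4ebp1, which represses cap-dependent translation until mTORC1 phosphorylates it, had 135 and 115 RPKM in pre-plasmablasts, against 81.5 and 82.0 RPKM in activated B cells (0.60, limma adjusted p = 0.00498). It had 75.2 and 71.9 RPKM in Blimp1-deficient cells, a difference of -0.75 from control pre-plasmablasts (limma adjusted p = 0.00252). Rps6kb2, an S6 kinase, had 36.7 and 37.5 RPKM in pre-plasmablasts, against 25.0 and 24.9 RPKM in activated B cells (0.56, limma adjusted p = 0.00148).

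The mitochondrial ribosome served as a second ribosome of the same cells. Its 74 genes took 0.839% and 0.778% of the summed RPKM in Blimp1-deficient cells, 0.846% and 0.785% in activated B cells, 0.794% and 0.711% in pre-plasmablasts and 0.769% and 0.7% in plasmablasts. In pre-plasmablasts against activated B cells 16 fell and 6 rose, with a median of -0.08 (8 fell and 10 rose with median-of-ratios scaling). Over all genes 28.0% fell and 20.2% rose, and 21.6% and 23.5% with the scaling. With the block 29 fell and 16 rose, and with both 24 fell and 22 rose. Over all genes 41.7% fell and 27.9% rose with the block, and 34.1% and 33.6% with both. In Blimp1-deficient against control pre-plasmablasts 15 rose and 6 fell, with a median of 0.19 (9 rose and 9 fell with that scaling). With the block 34 rose and 12 fell, and with both 20 rose and 17 fell. Here too the counts with both have no share over all genes beside them. Those over all genes with the scaling alone are given above. Over all genes 24.4% rose and 16.1% fell without block or scaling, and 40.4% and 24.9% with the block. Mrpl45 had 22.6 and 18.7 RPKM in pre-plasmablasts, against 48.1 and 42.7 RPKM in activated B cells (-1.11, limma adjusted p = 0.000559). Whether the cytosolic and mitochondrial genes shifted by different amounts was not tested.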

How the data were processed

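RNA of 14 libraries was used. The deposited files give gene names with RPKM values, already normalized by the authors; 8 of them are GC-normalized, per the labels and file names. The submitters' processing notes list, without roles, the mm9 build, SICER, DESeq 1.8.3, TopHat 1.4.1 and HTSeq 0.5.3. In the tables of plasma cells, 5 read-counter summary names shift names against values and were dropped; each of these tables then has as many names as values. RPKM values are not counts, so limma 3.58.1 in R 4.3.3 was fitted to log2(RPKM + 1), keeping genes that reached 1 RPKM in 2 or more libraries: 10473 genes in 1 fit of the 8 GC-normalized libraries, 9479 in the 4 inhibitor libraries. P-values are two-sided and Benjamini-Hochberg adjusted over all genes tested, with calls under 0.05. Folds understate changes of low genes. Plasma cells were not tested. Scripts were tested on simulated data.

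The replicate block pairs libraries by the number series in their titles, and 6 correlations of series differences between groups, 0.666 to 0.781, were checked before the calls were compared. Named genes are the stalk proteins, Rpsa, members of paralog pairs, the 5 highest and 5 lowest by mean level and by difference in each comparison, and calls against the majority. Tests are printed for many of those called with or without the block. Others, such as Rpl24, Rpl30, Rpl41, Rps14 and Rps24, were called only with the block and are given by RPKM alone. From other lists at most 3 genes with the largest differences are named. Genes and lists were chosen with earlier results of these data known. Alternatives were another pseudocount, no filter, median-of-ratios scaling, only the 2 groups compared, the block, and leaving out each library. Some individual genes are counted but not reported here by name.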

Additional observations from a re-analysis of the deposited data

How the results depend on the processing

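Counts of ribosomal protein genes called depended mainly on the library series block. In pre-plasmablasts against activated B cells the block gave 3 higher and 36 lower, with median-of-ratios scaling added 4 and 25, and that scaling alone 4 lower. Over all genes the block gave 27.9% higher and 41.7% lower, both together 33.6% and 34.1%, and scaling alone 21.6% lower. The 25 lower genes, 34.7% of the 72, were thus near the background. In plasmablasts against pre-plasmablasts the counts were 1 and 5 with the block (over all genes 7.0% and 13.3%) and 2 and 2 with both (11.1% and 9.25%). In plasmablasts against activated B cells the counts were 6 and 47 with the block (over all genes 28.0% and 47.4%), 9 and 30 with both, and 5 lower with scaling alone. In Blimp1-deficient against control pre-plasmablasts the counts were 48 and 2 with the block (over all genes 40.4% and 24.9%), 36 and 3 with both, and 5 higher with only the 2 groups fitted. Against activated B cells the deficient cells had 6 higher with the block (over all genes 22.1%) and 6 with both. The block with scaling was chosen after seeing the data. For plasmablasts against activated B cells and for the deficient cells, the counts with both have no share over all genes beside them. The same holds for the fit of only the 2 groups. These counts are therefore not read as a result about ribosomal protein genes. Counts over all genes with scaling alone are given above. With a pseudocount of 0.1 or no filter, GSK343 had 0 lower. The plasma cell shares were 4.97% and 4.84% with names as deposited, where names and values do not line up. The similar total does not show that values of single genes hold. For the 34 genes averaging 100 RPKM or more, the shares were 2.77% and 2.7% as deposited. With names and values lined up they were 4.55% and 4.44%. Leaving out 1 library gave 3 to 7 lower in pre-plasmablasts and 6 to 11 lower in plasmablasts against activated B cells, 3 to 9 higher and 0 to 1 higher in Blimp1-deficient cells against control pre-plasmablasts and activated B cells, and 0 to 8 higher and 0 to 9 lower with GSK343.

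Some differences changed sign when 1 library was left out, and the cause was not tested. In pre-plasmablasts against activated B cells Rpl24 ran from -0.17 to 1.03, Rplp0 from -0.22 to 0.08, Rplp2 from -0.43 to 0.26, Rps27a from -1.02 to 0.44 and Rps4x from -1.08 to 0.08. With median-of-ratios scaling Rplp0 was 0.05 and Rplp2 0.04. In plasmablasts against pre-plasmablasts Rpl22 ran from -0.40 to 0.05, Rpl3 from -0.47 to 0.06, Rpl30 from -0.86 to 0.02 and Rpl41 from -0.01 to 0.73. In plasmablasts against activated B cells Rpl10 ran from -0.37 to 0.99, Rpl24 from -0.28 to 0.88, Rps14 from -0.01 to 0.43 and Rps27a from -1.14 to 0.33. In Blimp1-deficient against control pre-plasmablasts Rplp2 ran from -0.20 to 0.49, Rps15a from -0.05 to 1.87, Rps27a from -0.40 to 1.07 and Rps4x from -0.05 to 1.11. Against activated B cells Rps3a ran from -0.03 to 0.82 and Rps7 from -0.25 to 1.51. Depth is unknown for the GC-normalized libraries, so no counting interval can be given.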
